A study of Mus musculus with 36 samples.

Results

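Chromatin accessibility was followed at the mouse loci Cd47, Ergic1, Tor1aip2 and Bbs9, each of which holds a peak that was among the most reduced in CD4 T cells lacking HP1γ. The assay was ATAC-seq, where Tn5 transposase inserts adapters into DNA that is not packed away, so that the reads over a region, called a peak, measure how open it is. All peaks were taken whose midpoint lay closest to a protein-coding start of one of the 4 genes, or that overlapped the body of the gene (GENCODE on GRCm39). This gave 82 of the 71509 peaks of the study, 45 at Cd47, 14 at Ergic1, 7 at Tor1aip2 and 16 at Bbs9, and all 82 passed the filter on low counts. The values that chose the loci were KO against wild type (WT) in the HP1γ line, in Tconv for Tor1aip2 and Ergic1, in Tconv with Treg for Cd47 and in naive cells for Bbs9. Within such a choosing comparison the peaks of that gene are described by their values, and a call there says only which thresholds the values passed and supports nothing. A working name of loci closed without HP1γ in Tconv applied to only some of them: in Tconv 0 of the 45 Cd47 peaks passed the call, and the Bbs9 peak that chose its locus did not pass it there either.

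The 36 libraries formed 12 groups of 3, from 2 mouse lines, 2 genotypes and 3 cell states. HP1γ KO cells carried floxed alleles of Cbx3 and a Cd4-cre transgene, which acts from the Cd4 promoter during thymic development, and their WT littermates had the floxed alleles without cre. HP1α KO mice lacked Cbx5 in all tissues after germline deletion with CMV-cre, and their WT controls were +/+ littermates. All donors were males of 6 to 12 weeks on a mixed 129/Sv and C57BL/6 background. Naive CD4 T cells were profiled before transfer. Tconv were allospecific Vβ6+ CD4 T cells recovered from the spleen of irradiated hosts, either C57BL/6 J or B6 carrying CD45.1, that had received bone marrow of C57BL/6 J and B6D2F1 together with the T cells. Spleens of such hosts were analysed 3 weeks after engraftment, a time given for flow cytometry and not separately for these libraries. Tconv with Treg came from hosts that were also given wild-type Treg expanded in culture, so the genotype differed only in the transferred Tconv. The labels do not say whether the 3 libraries of a group came from separate mice, so p-values measure the spread between these libraries. In bulk libraries, a lower level in every cell cannot be told apart from a loss in some of the cells.

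HP1γ, the product of Cbx3, is a chromatin reader that binds histone H3 methylated at lysine 9 and is found both in heterochromatin and along the bodies of transcribed genes. The 4 genes act in unrelated places. Cd47 encodes a surface protein that binds SIRPα on phagocytes, where it restrains engulfment, and that also binds thrombospondin and associates with integrins. Ergic1 encodes a membrane protein that cycles between the endoplasmic reticulum and the Golgi. Tor1aip2 encodes LULL1, an endoplasmic reticulum membrane protein that activates torsin ATPases, and Bbs9 encodes a subunit of the BBSome, a coat complex that carries membrane proteins to and from cilia.

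The sequences of the 4 choosing peaks are shown because the peaks differ in kind, with 2 lying at minor annotated starts and 2 inside introns. Peaks are named by the distance in kb of their midpoint from the start of the gene record, in the direction of transcription. Cd47 (chr16:49620896-49735373, plus strand) was chosen by the -0.4 kb peak, chr16:49618511-49622560, which covers the start of 1 of its 43 coding transcripts. Ergic1 (chr17:26780436-26875908, plus strand) was chosen by the +33.5 kb peak, chr17:26813141-26814720, which covers the start of 1 of 12 coding transcripts. Tor1aip2 (chr1:155911149-155944611, plus strand) was chosen by the +22.0 kb peak, chr1:155932941-155933290, in an intron, and Bbs9 (chr9:22386831-22800160, plus strand) by the +185.5 kb peak, chr9:22572171-22572490, also intronic. None of the 4 covers a RefSeq start of its gene. The lines give the 250 bases before the start for Cd47 (chr16:49620646-49620895) and Ergic1 (chr17:26813600-26813849), and 300 bases from the middle of the peak for Tor1aip2 (chr1:155932966-155933265) and Bbs9 (chr9:22572181-22572480), all from GRCm39, plus strand, with motif matches in capitals.
Cd47: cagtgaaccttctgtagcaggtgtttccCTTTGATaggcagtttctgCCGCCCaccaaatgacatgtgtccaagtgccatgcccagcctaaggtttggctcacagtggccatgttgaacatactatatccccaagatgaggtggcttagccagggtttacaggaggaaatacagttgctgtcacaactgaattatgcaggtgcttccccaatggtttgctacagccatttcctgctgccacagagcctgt
Ergic1: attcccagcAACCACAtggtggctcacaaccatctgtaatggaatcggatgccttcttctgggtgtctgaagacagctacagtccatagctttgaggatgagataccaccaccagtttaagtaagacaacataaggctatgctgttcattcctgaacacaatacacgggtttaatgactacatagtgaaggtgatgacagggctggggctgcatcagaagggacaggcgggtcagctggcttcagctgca
Tor1aip2: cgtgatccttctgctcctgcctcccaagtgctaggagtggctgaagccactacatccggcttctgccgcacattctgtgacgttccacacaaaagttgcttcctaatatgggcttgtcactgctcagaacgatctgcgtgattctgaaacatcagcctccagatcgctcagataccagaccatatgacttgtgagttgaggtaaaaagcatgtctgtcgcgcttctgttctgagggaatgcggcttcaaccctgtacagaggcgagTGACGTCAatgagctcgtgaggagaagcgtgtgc
Bbs9: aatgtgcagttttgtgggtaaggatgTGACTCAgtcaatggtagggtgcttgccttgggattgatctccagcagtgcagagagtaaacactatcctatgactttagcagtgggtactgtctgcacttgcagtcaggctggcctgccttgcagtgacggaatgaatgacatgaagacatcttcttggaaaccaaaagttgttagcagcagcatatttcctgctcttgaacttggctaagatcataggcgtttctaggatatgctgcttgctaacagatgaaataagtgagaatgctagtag
The capitals mark a TCF and an SP/KLF match at Cd47, a RUNX match at Ergic1, a cyclic AMP response element (CRE) at Tor1aip2 and an AP-1 match at Bbs9. The AP-1 family was searched as TGANTCA, the ETS family as CCGGAAG, the RUNX family as TGTGGTT, the SP and KLF factors as GGGCGG, and NRF1 as GCATGCG. The E-box was searched as CACGTG, the CRE as TGACGTCA, the GATA family as AGATAAG, the TCF family as CTTTGAT and part of the CTCF motif as AGGGGGC, all on both strands. Of 67321 windows of 250 bases before an annotated start, 2.72% held the TCF letters, 36.6% the SP/KLF letters and 4.02% the RUNX letters. The full CRE was found in 0.672% of the 5206 peaks within 10% of the width of the Tor1aip2 peak, and the AP-1 letters in 17.3% of the 6078 peaks of like width to the Bbs9 peak. The Tor1aip2 peak also had a ratio of observed to expected CpG of 0.605, higher than in 89.8% of all peaks, against 0.255, 0.186 and 0.134 at Cd47, Ergic1 and Bbs9. A match describes the letters and not a bound factor. Repeats were not marked in the genome sequence used, so whether a match lies in a repeat was not examined.

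The HP1γ libraries held 19.4 to 90.3 M reads in peaks and the HP1α libraries 1.49 to 96.8 M, the lowest in Tconv with Treg, of which the study left out 3 HP1α libraries for low quality. The peak at the Cbx3 start had a log2 fold change of 0.02, 0.02 and 0.11 between HP1γ KO and WT in the 3 states, and accessibility there does not check the deletion. The Cd4 start peak lay between 511 and 730 CPM, which are counts scaled to a common library total, in all HP1γ KO libraries and between 80.3 and 119 in their WT libraries, in groups that differ by the Cd4-cre transgene, whose part in this was not tested. Summed over 10 CD4 T cell markers, Cd4 among them, start peaks ranged from 599 to 2051 CPM across the 36 libraries, against 6.39 to 21.4 for the 2 of 6 B cell markers with a start peak, 17.6 to 41.1 for 3 of 6 myeloid, 2.66 to 35.9 for 1 of 2 CD8 and 83.9 to 237 for 2 of 2 Treg markers. No start of Lyz2, Csf1r, Fcgr3 or Cd8a, or of either NK marker, lay in a peak. Several sums moved with the HP1γ genotype without overlap. The CD4 T cell sum was higher in KO in all 3 states through the Cd4 start peak: the other 9 markers summed to 991 to 1108 CPM in KO and 984 to 1040 in WT in naive cells, 1131 to 1322 and 1183 to 1396 in Tconv, and 1158 to 1264 and 924 to 1172 with Treg, which overlapped in each. In naive cells the Treg sum was 184 to 207 CPM in KO and 170 to 180 in WT, the myeloid sum 25.2 to 29.8 and 33.9 to 34.8 and the erythroid sum 11.91 to 12.78 and 13.57 to 13.97. With Treg the B cell sum was 16.2 to 20.5 CPM in KO and 9.96 to 13.4 in WT and the Treg sum 168 to 174 and 125 to 161, and in Tconv the CD8 sum was 4.83 to 5.62 in KO and 2.66 to 4.34 in WT and the myeloid sum 29.1 to 33.5 and 34.1 to 37.0. In the HP1α line, with all 3 libraries per group, sums also differed without overlap. With Treg the B cell sum was 10.7 to 18.3 CPM in KO and 20.9 to 21.4 in WT. The myeloid sum there was 28.3 to 35.3 and 17.6 to 22.9. In Tconv the myeloid sum was 32.5 to 35.3 CPM in HP1α KO and 29.2 to 31.6 in WT. The erythroid sum was 12.6 to 13.9 and 5.97 to 11.02. The part of any of these sums in the differences at the 4 loci was not tested.

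Levels below are CPM scaled by the trimmed mean of M values (TMM), and a call means an adjusted p under 0.05 with an absolute log2 fold change over 1 in the quasi-likelihood test of edgeR. At the Tor1aip2 +22.0 kb peak, the HP1γ WT Tconv libraries held 4.06, 4.25 and 1.92 CPM and the KO Tconv libraries 0.438, 0.58 and 0.445 CPM, a log2 fold change of -2.86 (SE 0.35). All 3 KO libraries lay near the naive level, which was 0.34, 0.326 and 0.232 CPM in WT and 0.507, 0.535 and 0.245 CPM in KO. With Treg the peak was already low in WT cells, at 0.505, 0.622 and 0.904 CPM, and KO libraries held 0.119, 0.509 and 0.639 CPM. There the difference was not called, at -0.66 (SE 0.59, adjusted p = 0.433), nor was it in naive cells (0.36, SE 0.63, adjusted p = 0.907). So the one group in which the intron of Tor1aip2 stood open was HP1γ WT Tconv among the 6 HP1γ groups, and its lowest library of 1.92 CPM was still above every library of the other 5. The values rest on 96 to 258 reads per WT Tconv library and 19 to 28 per KO Tconv library.

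Ergic1 +33.5 kb showed a smaller reduction from a higher level. WT Tconv held 13.4, 15.5 and 9.01 CPM and KO Tconv 4.43, 4.06 and 3.12 CPM, without overlap, for a log2 fold change of -1.74 (SE 0.22). In naive cells WT libraries held 9.42, 9.2 and 7.9 CPM and KO libraries 5.26, 6.22 and 8.51 CPM, which overlapped (-0.28, SE 0.20, adjusted p = 0.716). With Treg the libraries did not overlap, at 3.48, 4.66 and 5.24 CPM in WT and 2.4, 2.07 and 2.77 CPM in KO, but the difference missed the call (-0.83, SE 0.31, adjusted p = 0.0667). It passed in 1 of 16 alternatives, the replicate block with log2 depth (-1.13, adjusted p = 0.00563). Among all 12 groups HP1γ KO Tconv and HP1γ KO Tconv with Treg ranked lowest, and the latter did not overlap its neighbour in the order.

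Cd47 -0.4 kb was the most accessible of the 4. With Treg, WT libraries held 48.2, 60.1 and 38.4 CPM and KO libraries 18.6, 23.4 and 21.1 CPM (log2 fold change -1.23, SE 0.15). In Tconv without Treg, libraries that did not choose it, WT held 76.6, 87.7 and 69.0 CPM and KO 54.5, 42.2 and 43.0 CPM. That difference of -0.73 (SE 0.13) passed the adjusted p at 0.00359 but stayed under the fold needed for a call. The WT libraries of Tconv deviated together with the same-numbered WT libraries with Treg (r 0.202 to 0.286). Its p-value is thus not fully independent of the choice. The same limit holds for the other Cd47 peaks in Tconv, and for Ergic1 and Tor1aip2 peaks with Treg. Naive libraries were alike, at 50, 52.3 and 54.5 CPM in WT and 53.0, 55.3 and 54.0 CPM in KO (0.07, SE 0.13, adjusted p = 0.909). From naive cells to Tconv the peak rose in WT, by 0.64 (SE 0.13, adjusted p = 0.000178), while the KO change was -0.16 (SE 0.14, adjusted p = 0.309), and the test of the difference gave -0.80 (SE 0.19, adjusted p = 0.217). Ranked over 12 groups, HP1γ WT Tconv was highest and overlapped no other group, HP1γ KO Tconv with Treg was lowest, and each group of rank 2 to 8 overlapped the next.

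Bbs9 +185.5 kb was open in naive cells and nearly closed afterwards. WT naive libraries held 3.54, 2.93 and 2.87 CPM and KO naive libraries 1.08, 1.3 and 1.23 CPM (log2 fold change -1.33, SE 0.21). In Tconv all 6 libraries lay between 0.167 and 0.487 CPM, and the genotypes overlapped (-0.62, SE 0.52, adjusted p = 0.558). With Treg, WT held 0.283, 0.448 and 0.714 CPM and KO 0.0851, 0.105 and 0.266 CPM, which did not overlap but rested on 5 to 18 reads per library (-1.61, SE 0.61, adjusted p = 0.0664). With the replicate number as a block that last difference passed (-1.69, adjusted p = 0.0416), as it did without WT Tconv with Treg replicate 1 (-1.94, adjusted p = 0.0468) or without KO Tconv with Treg replicate 3 (-2.12, adjusted p = 0.0413). In all it passed in 6 of 16 alternatives, where the adjusted p ranged from 0.0136 to 0.228. The naive difference that chose the peak was not called without KO naive replicate 3 (-1.35), and in 2 of 14 alternatives in all.

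**Figure D1:**
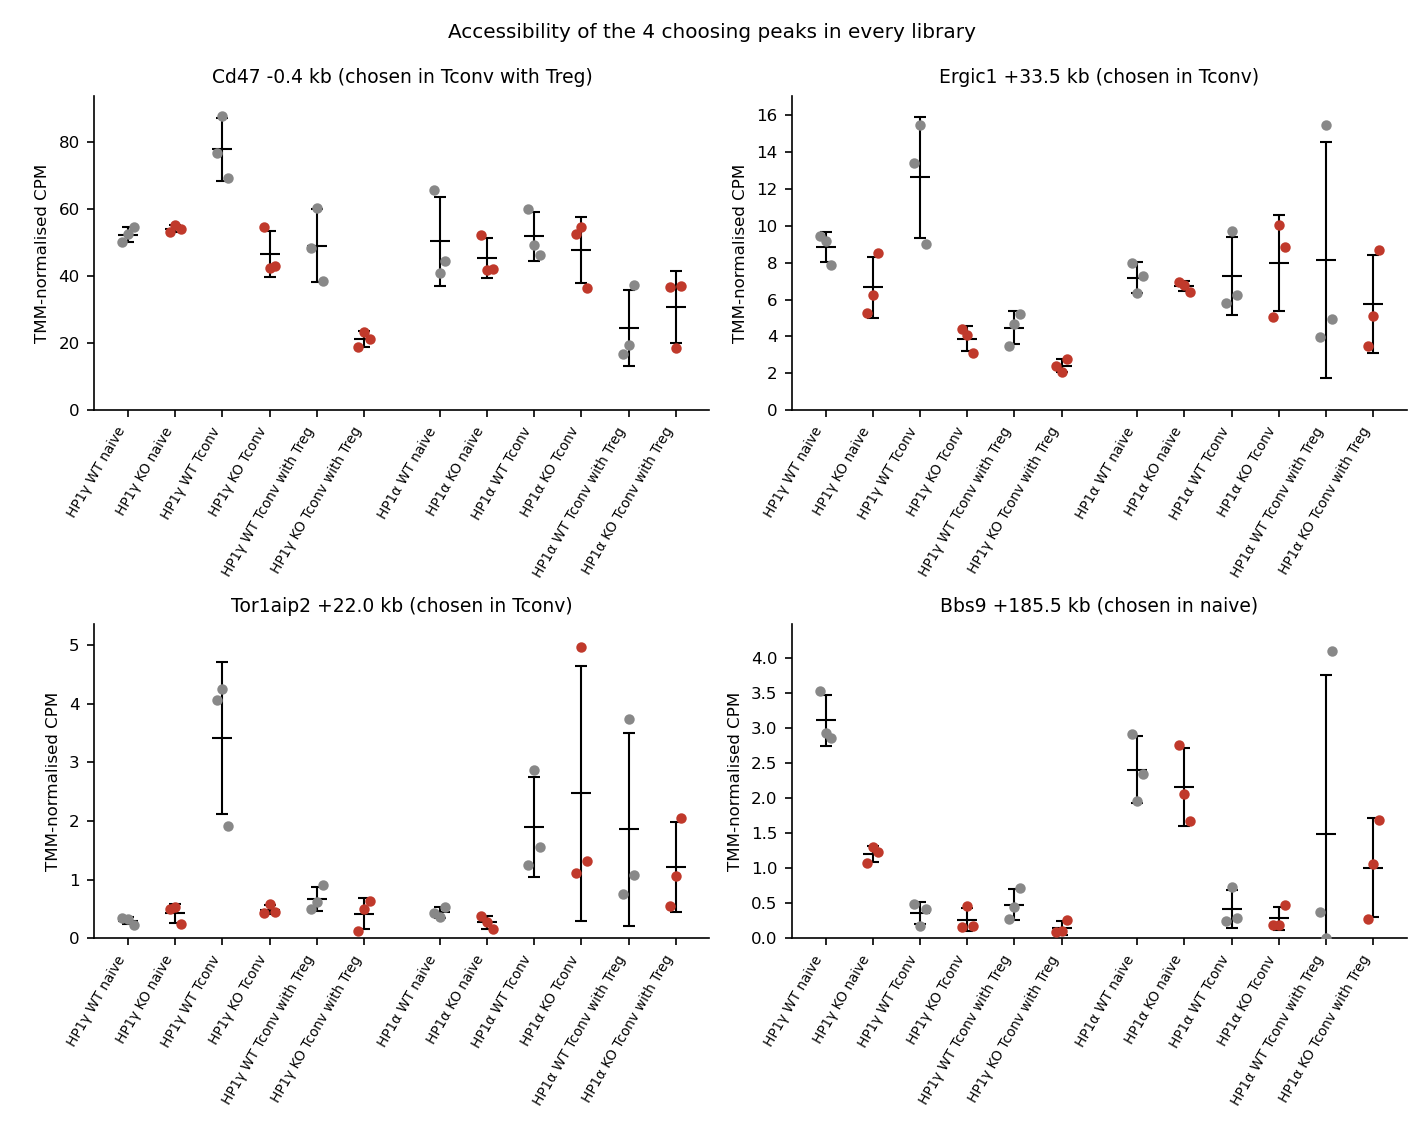
TMM-normalised CPM of the peak that chose each locus, in every library of the 12 groups, with grey points for WT, red points for KO, and the mean and SD of 3 libraries. All 3 HP1α libraries per group are drawn, including those the study left out. The Tor1aip2 peak is high in HP1γ WT Tconv, at 1.92 to 4.25 CPM, and at most 0.904 CPM in the other HP1γ groups, while HP1α KO Tconv reach 4.97 CPM.

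The main starts of the 4 genes lay in other peaks, and none of these was called in any state of the HP1γ line. Cd47 +55.7 kb (chr16:49672561-49680640) is 8080 bp wide and holds the starts of 41 of 43 coding transcripts. Its WT and KO Tconv libraries held 234, 253 and 218 CPM against 206, 185 and 193 CPM, a difference of -0.26 (SE 0.08, adjusted p = 0.0657), and with Treg it was -0.01 (SE 0.08). Ergic1 -0.1 kb (chr17:26779291-26781350) holds 9 of 12 starts and also a start of Dusp1, and its difference was -0.13, -0.02 and 0.31 in naive cells, Tconv and Tconv with Treg. At Tor1aip2, +1.3 kb (12 of 18 starts, shared with a start of Tor1aip1) differed by 0.07, -0.09 and 0.19, and +6.3 kb (6 of 18 starts) by -0.09, -0.01 and 0.22. Bbs9 +0.4 kb (15 of 18 starts) differed by 0.12, -0.08 and 0.20. Per kb of peak in WT Tconv, the level at the start peak holding the most transcripts was above that of the choosing peak, at 29.1 ± 2.15 (SD, n = 3) against 19.2 ± 2.32 CPM per kb for Cd47, 16.6 ± 2.30 against 7.99 ± 2.09 for Ergic1, 35.6 ± 3.69 against 9.74 ± 3.69 for Tor1aip2 at +1.3 kb and 33.5 ± 1.2 against 1.14 ± 0.501 for Bbs9. The other Tor1aip2 start peak, +6.3 kb, held 11.1 ± 0.154 CPM per kb, within the spread of the choosing peak. The Bbs9 choosing peak was nearly closed in Tconv. In WT naive cells, where it was open, its start peak held 43.0 ± 1.45 CPM per kb against 9.73 ± 1.15 for the choosing peak. The reductions that chose the loci lay at a secondary start or an intron, beside main starts whose differences were not called. Not called does not mean equal. With Treg, KO libraries lay above WT without overlap at Tor1aip2 +1.3 kb (123 to 130 against 104 to 115 CPM). The same held at Tor1aip2 +6.3 kb (47.8 to 49.5 against 39.3 to 45.1 CPM) and Ergic1 -0.1 kb (34.9 to 40.1 against 23.9 to 32.8 CPM). In naive cells KO lay below WT without overlap at Tor1aip2 +6.3 kb and Ergic1 -0.1 kb, and above it at Bbs9 +0.4 kb.

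At Cd47, in the comparison that chose it, values were also lower on the flanks. Of 45 peaks, 9 were called lower and 1 higher in KO Tconv with Treg, where 5.38% of the 71508 tested peaks were called lower and 6.48% higher; since this comparison chose the locus, nothing is read from the count. The lower peaks lay at -31.8, -18.5, -7.9, -3.5, -0.4, +4.2, +61.1, +76.0 and +84.9 kb, on both sides of the main start at +55.7 kb. Cd47 -18.5 kb (chr16:49601721-49603030) held 9.91, 14.7 and 8.47 CPM in WT and 3.18, 5.37 and 4.84 CPM in KO, a log2 fold change of -1.35 (SE 0.23). Cd47 -7.9 kb (chr16:49610631-49615350), the most accessible of the flank, held 76.7, 133 and 78.5 CPM in WT and 24.1, 58.0 and 44.0 CPM in KO (-1.19, SE 0.24), and -3.5 kb (chr16:49616481-49618340) held 35.2, 43.2 and 30.5 CPM in WT and 17.5, 19.3 and 17.1 CPM in KO (-1.02, SE 0.15). KO and WT libraries did not overlap at any of the 3. The calls at -7.9 and -3.5 kb ended without KO Tconv with Treg replicate 1 (-0.88 and -0.98) or WT Tconv with Treg replicate 2 (-0.89 and -0.89), and at -3.5 kb also without KO Tconv with Treg replicate 3 (-0.99), all by the fold. In all, the call at -3.5 kb was lost in 6 of 16 alternatives.

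In Tconv without Treg, which did not choose Cd47, the same 3 peaks were lower by less than the fold of a call. The difference was -0.63 (SE 0.18, adjusted p = 0.0442) at -18.5 kb, -0.70 (SE 0.22, adjusted p = 0.065) at -7.9 kb and -0.71 (SE 0.13, adjusted p = 0.00405) at -3.5 kb. At -18.5 kb WT Tconv held 16.8, 14.7 and 14.8 CPM and KO Tconv 12.1, 8.24 and 9.14 CPM. Of the 45 peaks, 34 had a log2 fold change below 0 in Tconv, with a median of -0.30, against 47.0% and a median of 0.02 over all peaks. Neither edgeR nor DESeq2, which called 3.44% of all peaks in Tconv, called any of them (0 of 45), and in edgeR 21 passed an unadjusted p of 0.05, as did 14031 of all 71508 peaks. In naive cells 6 of 45 lay below 0, with a median of 0.18, against 45.2% and 0.03 over all peaks. There 0 were called by edgeR, with 3 at an unadjusted p under 0.05, as had 6421 of all 71508, while DESeq2 called 3, as it did 3.27% of all peaks. The KO effect in Tconv minus that in naive cells was -0.87 (SE 0.25, adjusted p = 0.285) at -18.5 kb and -0.83 (SE 0.20, adjusted p = 0.217) at -3.5 kb.

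Downstream of Cd47 the picture was different. Between +136.9 and +181.8 kb the locus holds peaks that were almost closed in naive cells and opened in Tconv. Cd47 +151.6 kb (chr16:49772001-49772960) rose from 0.309, 0.217 and 0.0733 CPM in WT naive cells to 9.57, 9.73 and 8.95 CPM in WT Tconv, a log2 fold change of 5.67 (SE 0.49, adjusted p = 6.23e-09), and by 4.17 (SE 0.50, adjusted p = 1.3e-06) in the HP1α WT libraries. Its KO against WT values were 1.52, -0.14 and 0.47 in the 3 states, none called. Cd47 +175.7 kb (chr16:49796441-49796700) rose from 0, 0.0543 and 0.0244 CPM to 1.51, 1.26 and 0.821 CPM, by 5.43 (SE 0.60, adjusted p = 2.8e-08). Cd47 +181.8 kb, singled out after its values were seen, was the one Cd47 peak called higher in KO with Treg, at 45.3, 14.2 and 27.7 CPM against 10.6, 10.6 and 5.81 CPM in WT (log2 fold change 1.62, SE 0.35), with the highest value in KO Tconv with Treg replicate 1.

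**Figure D2:**
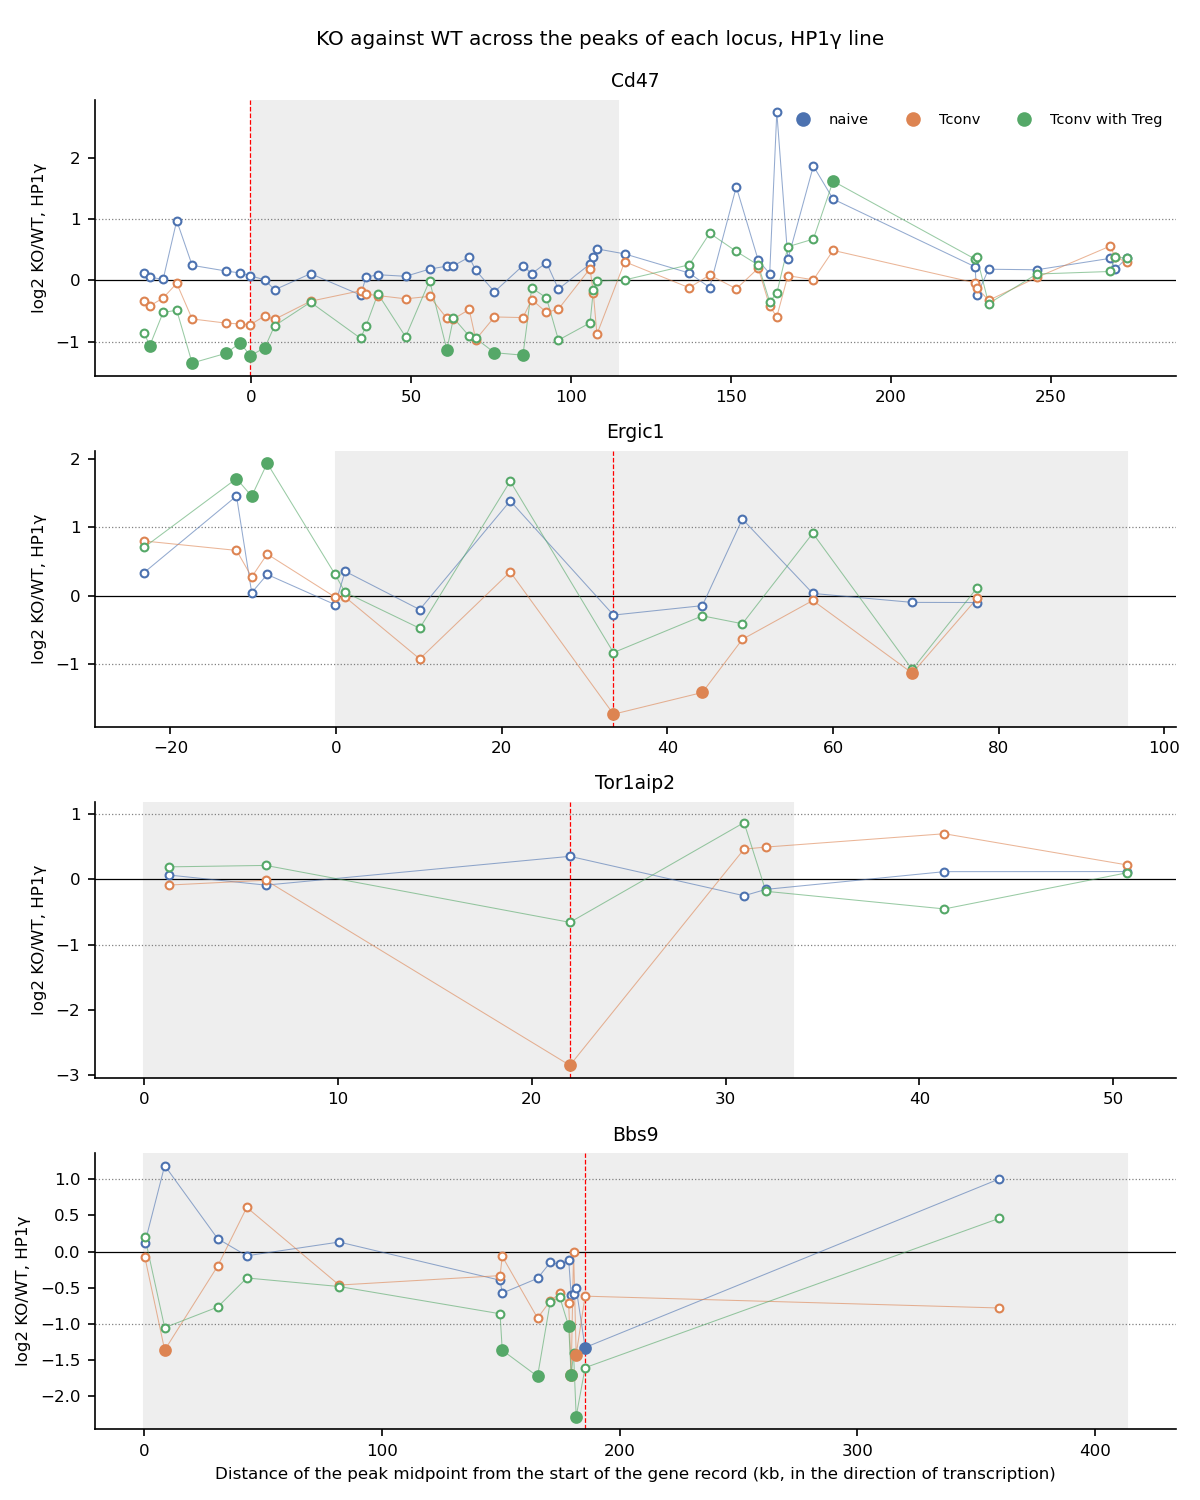
Log2 fold change of HP1γ KO against WT for every peak of the 4 loci, by the distance of its midpoint from the start of the gene record in kb, with filled points for calls, a grey band for the gene body and a dashed line at the choosing peak. Blue, orange and green stand for naive cells, Tconv and Tconv with Treg. The Cd47 flank from -31.8 to +84.9 kb holds 9 green calls below 0, and of the Bbs9 calls all but +8.7 kb in Tconv lie between +150.7 and +185.5 kb.

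Ergic1 peaks upstream of the main start were higher in KO cells with Treg. There, in Tconv with Treg, which did not choose the locus, 3 of 14 peaks were called, all higher in KO cells, where 6.48% of all peaks were called higher and 5.38% lower. Ergic1 -10.2 kb (chr17:26769521-26770980) held 16.6, 14.4 and 11.8 CPM in WT and 52.6, 26.6 and 41.7 CPM in KO, a log2 fold change of 1.46 (SE 0.21, adjusted p = 0.000265). Ergic1 -8.3 kb (chr17:26771571-26772670) held 2.71, 2.51 and 2.9 CPM in WT and 14.5, 5.9 and 10.1 CPM in KO (1.94, SE 0.29, adjusted p = 0.000332). Ergic1 -12.0 kb (chr17:26767941-26768890) held 2.08, 2.34 and 2.24 CPM in WT and 12.2, 3.02 and 5.91 CPM in KO (1.72, SE 0.43, adjusted p = 0.0104). No KO library overlapped a WT library at any of the 3, and KO replicate 1 was the highest at each. Without KO Tconv with Treg replicate 1 the -12.0 kb difference was 0.95 and no longer called (adjusted p = 0.081), and without WT Tconv with Treg replicate 2 its adjusted p was 0.0586; it was lost in 3 of 16 alternatives in all. In naive cells the same peaks differed by 0.04, 0.31 and 1.46 in the order given, none called by edgeR, and the KO effect with Treg minus that in naive cells was 1.41 (SE 0.41, adjusted p = 0.0983) at -10.2 kb, 1.63 (SE 0.59, adjusted p = 0.168) at -8.3 kb and 0.26 (SE 1.14, adjusted p = 0.936) at -12.0 kb. At -12.0 kb the naive libraries did not overlap either, at 1.14, 1.04 and 0.6 CPM in KO and 0.371, 0.299 and 0.256 CPM in WT. DESeq2 called 1 of the 14 Ergic1 peaks in naive cells, where it called 3.27% of all peaks.

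Inside Ergic1, in the comparison that chose it, 2 peaks beside the choosing one had values past the thresholds of a call in Tconv. Exonic +44.2 kb (chr17:26824351-26824970) held 4.12, 8.56 and 3.82 CPM in WT Tconv and 2.8, 1.89 and 1.51 CPM in KO Tconv (log2 fold change -1.42, SE 0.32). Intronic +69.6 kb (chr17:26849781-26850220) held 3.07, 7.94 and 4.66 CPM in WT and 2.61, 2.84 and 1.81 CPM in KO (-1.13, SE 0.32). WT replicate 2 was the highest at both, and without it the values were -0.97 and -0.70, neither called; both calls also ended without KO Tconv replicate 3 (-1.17 and -0.92), and that at +69.6 kb without KO Tconv replicate 1 (-1.24) or 2 (-1.23). In all, the call at +69.6 kb was lost in 9 of 14 alternatives and that at +44.2 kb in 4 of 14. With Treg, which is a test, +69.6 kb differed by -1.08 (SE 0.44, adjusted p = 0.0832) and +44.2 kb by -0.29 (SE 0.46, adjusted p = 0.67). At Ergic1 as a whole, 3 of 14 peaks were called lower in Tconv, the choosing peak among them, where 1.66% of all peaks were called lower and 1.69% higher; since this comparison chose the locus, nothing is read from the count.

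Tor1aip2 had 1 called peak of 7 in Tconv, the choosing one, and 0 in naive cells and with Treg by edgeR and by DESeq2, with 0 and 3 of the 7 at an unadjusted p under 0.05 in edgeR. Of all 71508 peaks, 6421 and 25620 had such a p in these states, DESeq2 called 3.27% and 12.3% there, and 1.66% were called lower in Tconv. The 6 other peaks differed by -0.09 to 0.70 in Tconv. Beside it, exonic +32.1 kb (chr1:155943041-155943410) was lost after transfer in both genotypes, from 3.11, 2.31 and 2.64 CPM in WT naive cells to 0.267, 0.274 and 0.28 CPM in WT Tconv. KO cells held 2.25, 2.04 and 2.55 CPM in naive cells and 0.209, 0.641 and 0.382 CPM in Tconv, and the KO difference was not called in naive cells (-0.15, SE 0.17, adjusted p = 0.837).

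Bbs9 was reduced in a group of intronic and exonic peaks before its choosing peak. In Tconv with Treg, 5 of 16 peaks were called lower and 0 higher, at +150.7, +165.5, +178.6, +179.6 and +181.7 kb, and in Tconv 3 of 16, at +8.7, +179.6 and +181.7 kb. Naive cells alone chose this locus, so both comparisons are tests, and 31.25% and 18.75% of its peaks stand against 5.38% and 1.66% of all peaks. The peaks called with Treg lie close together in 1 gene, come from the same libraries, and may share reads. They are therefore not separate observations, and the shares cannot be compared as if they were. Bbs9 +181.7 kb (chr9:22568131-22569020) held 9.09, 7.7 and 4.18 CPM in WT Tconv and 3.97, 1.46 and 2.23 CPM in KO Tconv (log2 fold change -1.42, SE 0.31, adjusted p = 0.0115). With Treg it held 3.13, 5.93 and 4.19 CPM in WT and 0.477, 1.37 and 0.798 CPM in KO (-2.28, SE 0.46, adjusted p = 0.00282). Neither comparison had overlapping libraries. Naive libraries did not overlap either, at 10.5, 11 and 10.1 CPM in WT and 7.22, 8.32 and 6.8 CPM in KO, a value of -0.51 (SE 0.23) in the comparison that chose the locus.

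Bbs9 +179.6 kb (chr9:22566171-22566760), which covers an exon, held 4.01, 3.07 and 1.56 CPM in WT Tconv and 1.34, 1.01 and 0.509 CPM in KO Tconv (-1.70, SE 0.36, adjusted p = 0.0108), and 1.07, 1.82 and 2.19 against 0.238, 0.456 and 0.852 CPM with Treg (-1.71, SE 0.53, adjusted p = 0.0288). Intronic +165.5 kb (chr9:22551771-22552880) fell with Treg from 7.48, 11.9 and 6.0 CPM in WT to 1.26, 3.79 and 2.98 CPM in KO (-1.73, SE 0.38, adjusted p = 0.00484), and near the start +8.7 kb (chr9:22394891-22396160) fell in Tconv from 8.87, 7.19 and 2.98 CPM to 2.84, 2.44 and 2.3 CPM (-1.36, SE 0.31, adjusted p = 0.0151). In each of these comparisons all KO libraries lay below all WT libraries. Leaving out 1 library ended some of these calls. In Tconv, +179.6, +181.7 and +8.7 kb were not called without KO Tconv replicate 3 (adjusted p = 0.105, 0.089 and 0.0969) or without WT Tconv replicate 1 (0.0677, 0.0679 and 0.0966), and +8.7 kb also not without WT Tconv replicate 2 (0.0643). With Treg, +179.6 kb was not called without KO Tconv with Treg replicate 1 (0.141) or WT Tconv with Treg replicate 2 or 3 (0.128 and 0.0693), +165.5 kb was not without WT Tconv with Treg replicate 2 (0.0532), and +181.7 kb was called in all 16 alternatives. In all, the calls at +179.6, +181.7 and +8.7 kb were lost in 3, 3 and 5 of 14 alternatives in Tconv, and with Treg those at +179.6 and +165.5 kb in 4 and 1 of 16. The KO effect with Treg minus that in Tconv was -0.01 (SE 0.56, adjusted p = 0.995) at +179.6 kb and -0.86 (SE 0.59, adjusted p = 0.526) at +181.7 kb.

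**Figure D3:**
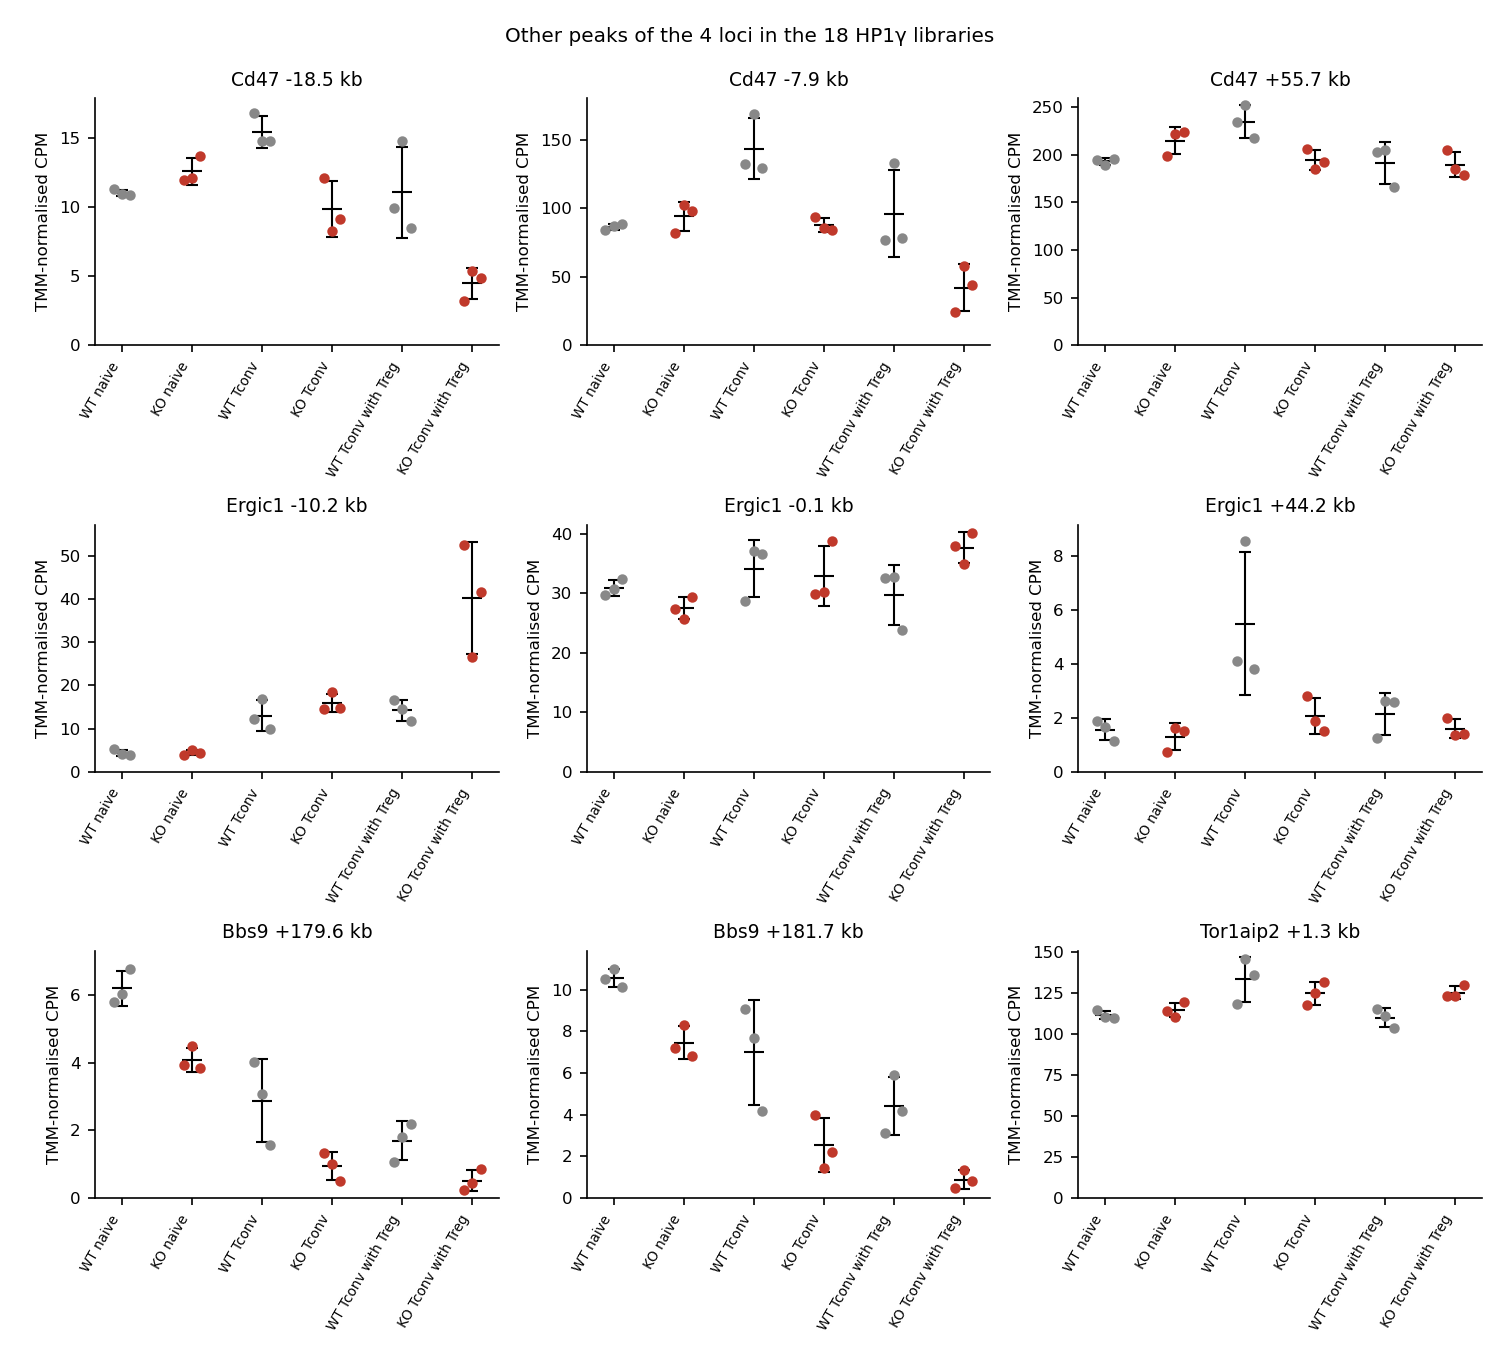
TMM-normalised CPM in the 18 HP1γ libraries at 9 other peaks of the 4 loci, with grey points for WT, red points for KO, and the mean and SD of 3 libraries. At Ergic1 -10.2 kb the KO libraries with Treg lie between 26.6 and 52.6 CPM against 11.8 to 16.6 CPM in WT, while at Bbs9 +181.7 kb they lie at 0.477 to 1.37 CPM against 3.13 to 5.93 CPM.

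Over all 82 peaks the HP1γ line gave 1 call in naive cells, 7 in Tconv and 18 in Tconv with Treg. The naive call was the Bbs9 choosing peak, lower in KO, where 0.00699% of all peaks were called lower and 0.133% higher. All 7 calls in Tconv were lower, 3 at Ergic1, 3 at Bbs9 and 1 at Tor1aip2, where 1.66% of all peaks were called lower and 1.69% higher. With Treg 14 were lower and 4 higher, where 5.38% and 6.48% of all peaks were. Each of these comparisons chose 1 or more of the loci, so the pooled counts are a description and nothing is read from them. By DESeq2 the naive count was 5, where it called 3.27% of all peaks. With only the compared groups in the fit the naive count was 2, that of Tconv 2 and that with Treg 9, where 1.59%, 0.651% and 5.15% of all peaks were called. The counts also depended on single libraries: without KO Tconv replicate 3 the Tconv count was 2, without WT Tconv replicate 1 or 2 it was 4, without KO naive replicate 3 the naive count was 0, and with Treg it was 6 without WT replicate 2, 10 without KO replicate 1 and 28 without WT replicate 1. Shares over all peaks are not given for the fits without a library, so a general shift cannot be told from one at these loci. The KO effect was compared between the 2 states that did not choose a locus at the 27 peaks named here, and 0 differed by edgeR, with 9 at an unadjusted p under 0.05 and 2 by DESeq2. Of all 71508 peaks, 6803 had such a p in edgeR for Tconv against naive cells, 12472 for Tconv with Treg against naive cells and 9150 for Tconv with Treg against Tconv, and DESeq2 called 1.93%, 5.14% and 1.12% in the same order. Without KO Tconv with Treg replicate 2, edgeR called 2. Some of the named peaks at Ergic1 and Bbs9 were named for a called KO difference in 1 of the states compared. Their counts are thus not on the same footing as those over all peaks, and nothing is read from them.

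The HP1α line, whose libraries did not choose the loci, gave 1 call, with Treg. With the replicate number as a block it gave 6 with Treg, 1 in Tconv and 0 in naive cells, where 7.01%, 0.154% and 0.0489% of all peaks were called in that fit. Among the 82 peaks 0 were called in naive cells and 0 in Tconv by edgeR, and 0 in both by DESeq2, where edgeR called 0.0014% of all peaks lower and 0.0042% higher in naive cells, and 0.0126% and 0.00839% in Tconv, and DESeq2 called 0.00979% and 0.0168% in either direction. In naive cells 0 and in Tconv 5 of the 82 had an unadjusted p under 0.05, as had 835 and 3450 of all 71509 peaks. HP1α KO Tconv held 1.12, 4.97 and 1.32 CPM at Tor1aip2 +22.0 kb and WT Tconv 1.25, 2.86 and 1.56 CPM, a difference of 0.69 (SE 0.50, adjusted p = 0.999). Ergic1 +33.5 kb held 5.07, 10 and 8.84 CPM in HP1α KO Tconv and 5.83, 9.72 and 6.26 CPM in WT Tconv (0.15, SE 0.28, adjusted p = 0.999). Cd47 -0.4 kb held 52.3, 54.4 and 36.3 against 60, 49.1 and 46.1 CPM (-0.15, SE 0.19, adjusted p = 0.999). Bbs9 +185.5 kb in naive cells held 2.77, 2.06 and 1.67 CPM in HP1α KO and 2.92, 1.96 and 2.35 CPM in WT (-0.12, SE 0.22). Genotypes overlapped in each of these.

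With Treg the study kept 1 HP1α KO library and 2 WT libraries, so the lone KO library was assumed to vary like the other groups. Cd47 -0.4 kb held 36.7 CPM in the KO library and 16.8 and 19.2 CPM in the WT libraries, a difference of 1.09 (SE 0.40, adjusted p = 0.173). With all libraries it was 0.55 (SE 0.40, adjusted p = 0.654), and the KO libraries of 18.4 to 36.9 CPM overlapped the WT libraries of 16.8 to 37.3 CPM. One of the 82 peaks was called, Cd47 +181.8 kb, lower in HP1α KO at 4.68 CPM against 19.1 and 6.42 CPM (-1.87, SE 0.34, adjusted p = 0.0105), where 1.42% of all peaks were called lower. The same peak went the other way in the HP1γ line with Treg, but the lines were not tested against each other. Between these HP1α groups the B cell and myeloid marker sums also differed without overlap, as given above, and their part was not tested. DESeq2 did not call it and called 1 Ergic1 peak instead, with 3.57% of all peaks called in either direction. The edgeR call ended without WT Tconv with Treg replicate 1, and with all libraries the value was -1.53 (SE 0.29, adjusted p = 0.0141), although the KO libraries of 4.68, 5.61 and 7.6 CPM then overlapped WT libraries of 19.1, 6.42 and 11.2 CPM.

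Transferred cells were also compared with naive cells. In the HP1γ line 33 of 82 peaks were called higher and 9 lower in WT Tconv than in WT naive cells, where 24.5% and 22.0% of all peaks were. In the HP1α line 32 were higher and 7 lower, with 24.9% and 17.5% of all peaks, and 28 of the higher peaks were shared, 84.8% of the HP1γ calls and 87.5% of the HP1α calls, against 87.8% and 86.2% over all peaks. The 7 lower HP1α calls were all among the 9 of the HP1γ line (77.8% and 100%, against 74.5% and 93.3% over all peaks). Cd47 held 24 of the 33 higher calls. Marker sums also moved between naive cells and Tconv. In HP1γ WT the CD8 sum was 31.7 to 35.5 CPM in naive cells and 2.66 to 4.34 in Tconv. The erythroid sum was 13.57 to 13.97 and 7.94 to 10.3, and the Treg sum 170 to 180 and 143 to 162. The B cell sum was 8.14 to 9.12 and 9.2 to 14.8, and the CD4 T cell sum 1088 to 1151 and 1301 to 1509. In HP1α WT the CD8 sum was 31.7 to 35.1 and 3.18 to 8.67. The part of these sums was not tested. Tor1aip2 +22.0 kb, described without a test in the line that chose it, rose by 3.61 (SE 0.34) there and by 1.97 (SE 0.69, adjusted p = 0.0194) in HP1α WT, from 0.435, 0.359 and 0.53 CPM in naive cells. Bbs9 +185.5 kb was lower in Tconv by -2.65 (SE 0.41, adjusted p = 1.76e-05) in HP1α WT and by -3.00 (SE 0.26) in HP1γ WT. Ergic1 +33.5 kb differed by 0.03 (SE 0.28, adjusted p = 0.937) in HP1α WT and Cd47 -0.4 kb by 0.15 (SE 0.19, adjusted p = 0.503). Other peaks opened further, such as Ergic1 +49.1 kb (chr17:26829331-26829650), at 2.92, 1.82 and 1.14 CPM in HP1α WT Tconv against 0.131, 0.101 and 0.0758 CPM in naive cells (4.69, SE 0.35, adjusted p = 4.45e-10), and Bbs9 +8.7 kb (4.69, SE 0.33, adjusted p = 2.5e-09), and others closed, such as Bbs9 +31.0 kb (-2.10, SE 0.42, adjusted p = 0.000229).

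With Treg 2 of the 82 peaks were called lower in HP1γ WT cells than without, the Tor1aip2 and Ergic1 choosing peaks, where 0.0699% of all peaks were called lower. Since the WT Tconv libraries also chose these peaks, the values are a description: -2.48 (SE 0.35) at Tor1aip2 +22.0 kb and -1.59 (SE 0.23) at Ergic1 +33.5 kb. That count was 0 without WT Tconv replicate 2 and without WT Tconv with Treg replicate 1 or 3, and 4 without WT Tconv replicate 3. In HP1γ KO cells 9 peaks were lower and 7 higher with Treg, where 2.06% and 6.1% of all peaks were, 6 lower and 2 higher at Cd47, 4 higher at Ergic1, 1 higher at Tor1aip2 and 3 lower at Bbs9. These KO libraries also chose Cd47, Ergic1 and Tor1aip2, so nothing is read from the count or from the values at these 3 loci. That count fell to 5 without KO Tconv with Treg replicate 1 and to 10 without KO Tconv replicate 1. These libraries did not choose the Bbs9 locus, but +165.5 and +181.7 kb were named for a KO difference in the KO libraries with Treg. Their values are thus a description, and the p-values are no separate test. In KO cells +165.5 kb changed by -1.55 (SE 0.38, adjusted p = 0.0103) and +181.7 kb by -1.58 (SE 0.50, adjusted p = 0.04), and in WT cells by -0.74 (SE 0.28, adjusted p = 0.164) and -0.72 (SE 0.30, adjusted p = 0.195). The difference of the Treg effect between genotypes was -0.81 (SE 0.48, adjusted p = 0.466) and -0.86 (SE 0.59, adjusted p = 0.526), so the genotypes were not shown to differ. In HP1γ KO cells the B cell sum was 11.1 to 15.4 CPM in Tconv and 16.2 to 20.5 with Treg. The Treg marker sum was 152 to 157 and 168 to 174 CPM, and the part of either sum was not tested.

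Peaks of neighbouring genes within 500 kb were counted in the same comparisons, in which 1.66% of all peaks were called lower and 1.69% higher in Tconv, and 5.38% lower and 6.48% higher with Treg. Around Cd47, 15 other peaks gave 3 lower and 0 higher calls in Tconv and 4 lower and 2 higher with Treg, nearest to Bbx in Tconv and to Bbx or Ift57 with Treg. Around Ergic1, 72 other peaks gave 2 lower calls in Tconv, nearest to Atp6v0e and Nkx2-5, and 5 lower and 3 higher with Treg. Around Tor1aip2, 45 other peaks gave 3 lower calls in Tconv, nearest to Abl2, Qsox1 and Soat1, and 4 lower and 3 higher with Treg. Around Bbs9, 15 other peaks gave 0 calls in Tconv and 1 lower with Treg, nearest to Anln. The medians over these other peaks in Tconv were -0.37 around Cd47, -0.03 around Ergic1, 0.04 around Tor1aip2 and -0.04 around Bbs9.

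**Figure D4:**
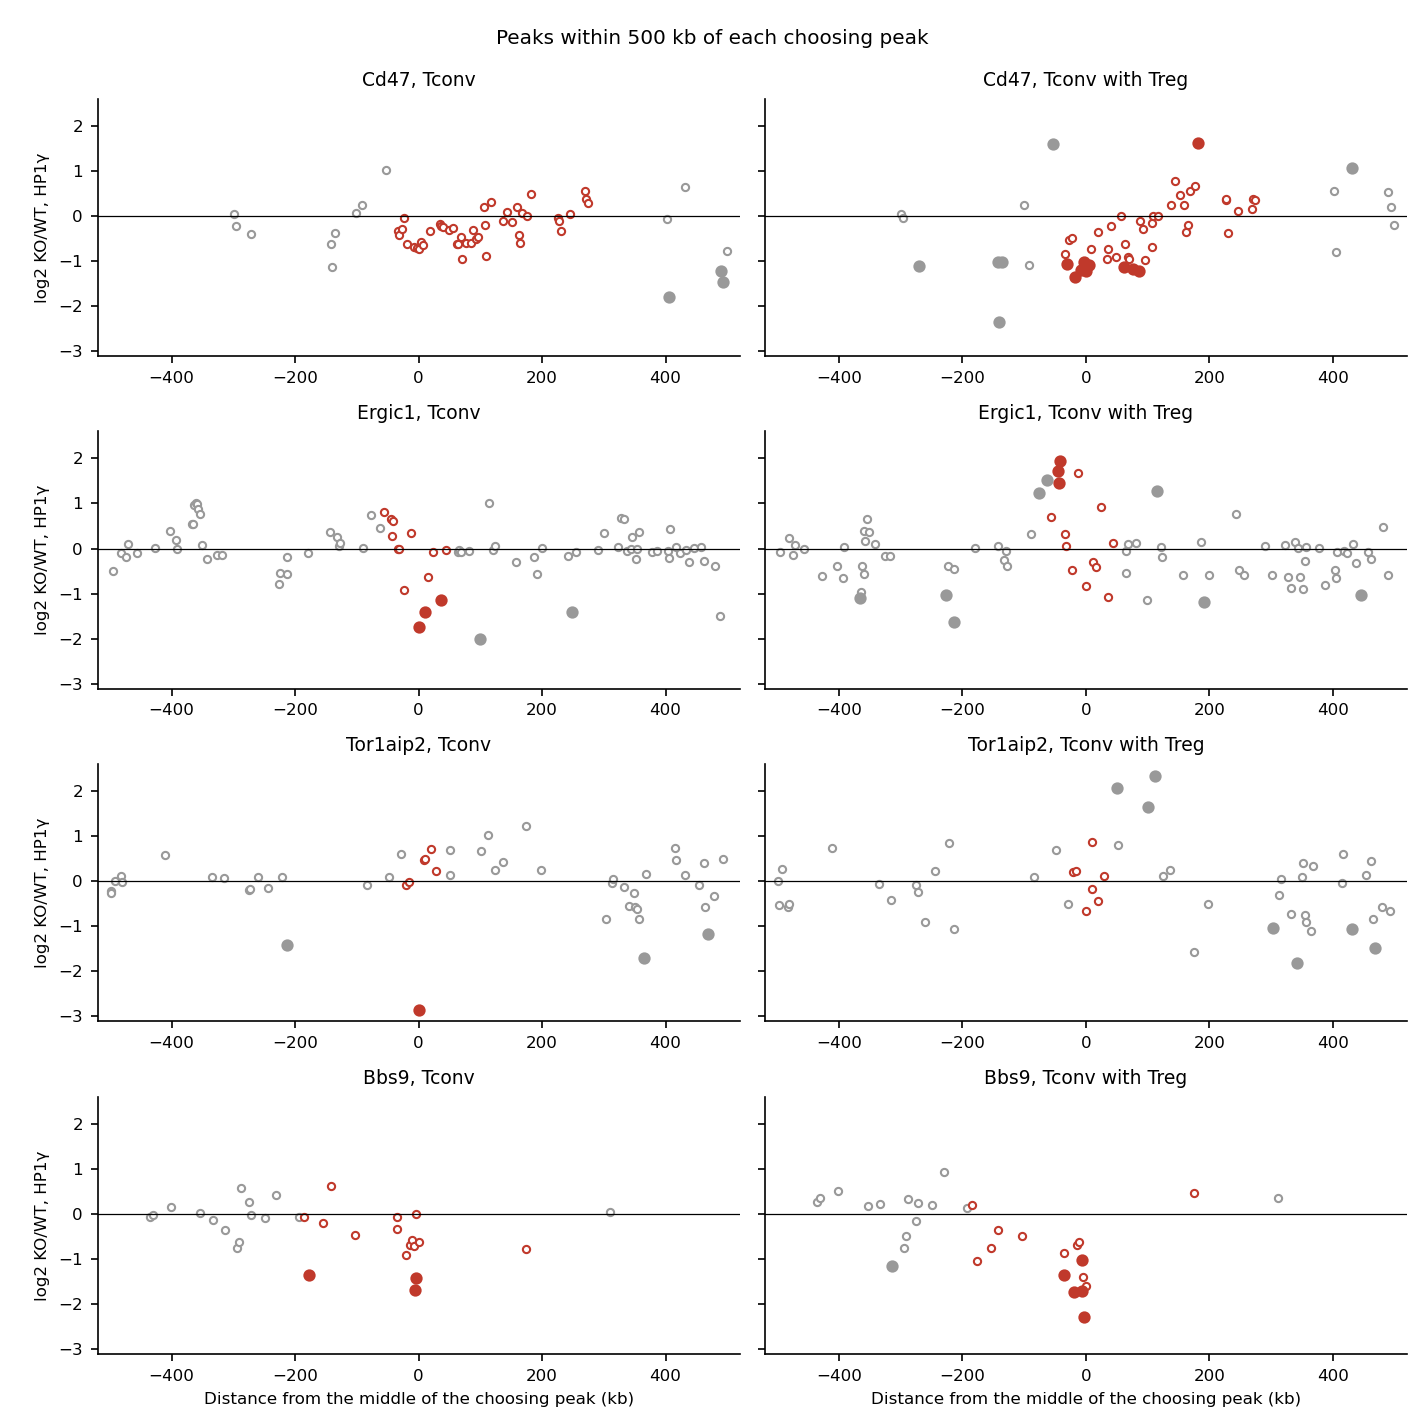
Log2 fold change of HP1γ KO against WT for all peaks within 500 kb of each choosing peak, by distance in kb, in Tconv on the left and Tconv with Treg on the right, with red for the peaks of the locus, grey for peaks of other genes and filled points for calls. Around Bbs9 1 of the 15 grey peaks is called with Treg, against 5 of the 16 red peaks.

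Genes that work with the 4 proteins were counted by the same assignment, to be read beside the 1.66% of all peaks called lower and 1.69% called higher in Tconv, and the 5.38% and 6.48% with Treg. For CD47 partners, the thrombospondins, integrins and others, 10 of 12 genes had 113 peaks, of which 1 was lower and 0 higher in KO Tconv and 22 lower and 9 higher with Treg. Itgb1, the beta subunit shared by many integrins, took 17 of the 22, of its 34 peaks, with the smallest p at a peak of log2 fold change -2.17 (adjusted p = 0.000463), while Itgav, the alpha subunit of vitronectin receptors, had 5 higher and 0 lower of 16 (2.04, adjusted p = 0.000371). In the torsin system 11 of 12 genes had 81 peaks, with 1 lower call in Tconv, at the lamin gene Lmna (-1.14, adjusted p = 0.0269), and 3 lower and 1 higher with Treg, of which 2 lower were at Syne1, a nuclear envelope spectrin. For cycling between the endoplasmic reticulum and the Golgi, 15 genes had 48 peaks, with 3 lower in Tconv, 1 each at Ergic2 (-1.02, adjusted p = 0.0274), Mcfd2 (-1.22, adjusted p = 0.0359) and Tmed10 (-1.08, adjusted p = 0.0464), and 2 lower and 2 higher with Treg. The BBSome and its loading factors had 35 peaks at 12 genes, with 0 lower and 1 higher in Tconv, at the chaperonin-like Bbs10 (1.15, adjusted p = 0.00356), and 1 lower and 4 higher with Treg. Medians of the 4 lists with Treg were -0.20, 0.04, 0.04 and 0.25, in the order given, against -0.02 over all peaks.

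Over the 18 HP1γ libraries, log2 CPM at Cd47 -0.4 kb correlated best with peaks nearest to Milr1 (Pearson r = 0.967) and Lemd2 (0.964), among peaks over 1 Mb away or on another chromosome. For Ergic1 +33.5 kb these were Ptgir (0.944) and Mef2a (0.926), for Tor1aip2 +22.0 kb Rnf144a (0.937) and Il1rl1 (0.924), and for Bbs9 +185.5 kb Cog6 (0.972) and Chd7 (0.972). The libraries share their groups and depth, and the highest of all correlations were picked, so these values only name the peaks most alike in pattern.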

How the data were processed

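ATAC-seq was measured in 36 libraries. Per the methods of the authors, reads were trimmed (Trim Galore 0.6.7), aligned to the mouse genome with BWA-MEM 2, filtered (Samtools, Picard), called per sample with HMMRATAC and merged with BEDTools, and the deposited counts are whole reads per merged peak from featureCounts 2.0.3, not normalized, where a read may count in neighbouring peaks. Of the peaks, 3 had no width and were left out, leaving 71509. Counts were fitted per line with edgeR 4.0.16 (TMM, filterByExpr, quasi-likelihood F test, no replicate block), with Benjamini-Hochberg adjustment over all peaks, and the threshold of the study was used for a call (adjusted p under 0.05, log2 fold change beyond 1 either way). The SE is the log2 fold change divided by the square root of F. For HP1α, 15 libraries entered the fit, without the 3 that the study left out. Depth was 1.49 to 96.8 M reads in peaks, and few reads mean wide errors at small peaks. DESeq2, other normalizations and filters, and each library left out were the alternatives. The edgeR test was also run on simulated counts, whose outcome is not given here and supports no call. Named peaks were the choosing peaks, those at an annotated start, the 3 called KO differences of smallest p per locus and state, and the 2 largest called changes between HP1γ WT Tconv and naive cells per locus. The members, named peaks and gene lists were chosen with earlier results of these data known. Same-numbered libraries deviated together in every pair (r over 0.1) in HP1γ Tconv with Treg between genotypes (0.147 to 0.323), in HP1γ WT between Tconv with Treg and Tconv (0.202 to 0.286) and in HP1α naive cells between genotypes (0.247 to 0.500). What a shared number means is not given in the labels. With the replicate block the HP1γ count with Treg was 23 in place of 18. Sequences are from the GRCm39 genome given with the annotation.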

Additional observations from a re-analysis of the deposited data

How the results depend on the processing

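Of the call counts over the 82 peaks, those for Tconv against naive cells (42 in the HP1γ line, 40 to 43 without 1 library, and 39 in the HP1α line, 38 to 43) and for HP1α KO in naive cells (0) moved by less than 1.5 times under every alternative run. The others moved, and the cause was not tested. Shares over all peaks are not given for most of these alternatives. The counts therefore show only how far the member counts moved, and nothing is read from them about the members. With DESeq2 the counts were 5 for HP1γ KO in naive cells in place of 1, 5 for Treg in HP1γ WT in place of 2, and 2 for the difference of the KO effect between states in place of 0. With only the groups compared in the fit, which leaves fewer libraries to estimate the spread, they were 2 in naive cells, 2 in Tconv in place of 7, 9 with Treg in place of 18, 0 for HP1α KO with Treg in place of 1, and 0 and 2 for Treg in HP1γ WT and KO in place of 2 and 16. With the adjusted p alone they were 15 in Tconv and 31 with Treg, and with gene-body overlap only 10 with Treg. With log2 depth as a covariate they were 0 for HP1α KO with Treg and 0 for Treg in HP1γ WT. With the replicate block they were 1 for HP1α KO in Tconv in place of 0 and 6 for HP1α KO with Treg, the other counts moving by less than 1.5 times, and with the block and GC offsets 4 for Treg in HP1γ WT. The earlier quasi-likelihood method of edgeR, chosen after the data were seen like the block with depth or GC, gave 4 in Tconv, 0 for HP1α KO with Treg and 1 for the difference of the KO effect. Leaving out 1 library gave 0 to 1 calls in naive cells, 2 to 10 in Tconv, 6 to 28 with Treg, 0 to 1 for HP1α KO with Treg, 0 to 4 and 5 to 21 for Treg in HP1γ WT and KO, and 0 to 2 for the difference of the KO effect. No value changed sign among those tested under the alternatives. Leaving out HP1α KO Tconv with Treg replicate 1 gave no value, since it was the only library of its group kept. Small peaks such as Bbs9 +185.5 kb, at 5 to 18 reads per library with Treg, limit what a difference there can show.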
